A study of Rattus norvegicus with 18 samples.

Results

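The 4 Hox cluster spans are 4 stretches of the rat genome, build rn6, that hold the HoxA, HoxB, HoxC and HoxD gene clusters by position. They were chosen by coordinates alone, as chr4:82000001-82400000 for HoxA, chr10:83800001-84300000 for HoxB, chr7:144400001-144800000 for HoxC and chr3:61500001-61800000 for HoxD. Of 2330883 cytosines in the table, 6640 lay in the spans: 46 in HoxA, 2653 in HoxB, 1956 in HoxC and 1985 in HoxD. Methylation had been measured by reduced representation bisulfite sequencing (RRBS), in which DNA is cut with the enzyme MspI at CCGG, treated with bisulfite and sequenced. The DNA came from the left hippocampus of 18 adult male Sprague-Dawley rats, with 1 library a rat. The 4 groups were kindling seizure (4 rats, electrical stimulation through hippocampal electrodes until fully kindled), kindling sham (4 rats), kainic acid seizure (3 rats, status epilepticus after systemic injections) and kainic acid sham (7 rats). Both seizure groups carry the label "3 Class V", and their hippocampi were taken 24 hours after the last seizure. All groups share strain and sex, and the sources used here do not give what the sham rats underwent. Whole hippocampus was used, so a change in the mix of cell types and a change within cells cannot be told apart, and the labelled tissue was not checked against marker genes, because the table holds no expression.

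Hox genes encode homeodomain transcription factors that give cells their position along the head to tail axis of the embryo. They lie in clusters, in an order that follows the order of body regions in which they act, and expression in the brain is known mainly from the hindbrain and spinal cord. The forebrain, which includes the hippocampus, is known for keeping Hox genes silent under Polycomb repression, and Hox clusters are rich in CpG islands, where CpGs usually lack methylation.

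The names of 3 spans were checked against RefSeq promoter sequences (build GRCr8, 250 bases before to 50 after each gene's start). No rn6 genome was used. Instead, the spacing of the CpGs in each promoter was matched to the positions of measured cytosines, and a promoter was placed where at least 12 of its CpGs, and no other CpG, were measured. This placed 11 promoters in the spans, all 11 on the chromosome RefSeq gives, while the next best match of each covered at most 7 CpGs. Of these, 6 were Hox genes of the HoxD cluster: Hoxd12, Hoxd11, Hoxd10, Hoxd9, Hoxd3 and Hoxd1, in RefSeq order. In HoxB, Ube2z (a ubiquitin-conjugating enzyme) and Ttll6 (a tubulin-modifying enzyme) were placed, and RefSeq lists Ttll6 next to Hoxb13. In HoxC, LOC102547667, LOC102547478 and LOC120093746 were placed, uncharacterised genes that RefSeq lists beyond Hoxc4. The promoters of LOC102547667 and LOC102547478 overlap on opposite strands, so their placements are not independent. The promoters of Hoxd13, Hoxd8, Hoxd4, Evx2, Hoxb1 and Hoxc4 could not be placed. Hoxb1 and Hoxc4 were the only Hoxb and Hoxc genes among the RefSeq promoters used, and the others were not searched. The check of the HoxB and HoxC names thus rests on the other genes placed there. The spans thus also hold genes other than Hox genes, and outside placed promoters tiles and cytosines were not assigned to genes. None of 11 promoter entries of HoxA genes and Evx1 could be placed anywhere in the table, so the HoxA genes were not analysed here.

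Of the Hoxd promoters, 4 are shown because they carry the main pattern within the spans. Hoxd11, Hoxd9 and Hoxd1 hold measured CCGG sites and Hoxd3 does not. Capitals mark every CCGG, the MspI site, which reads the same on both strands. The sequences are from RefSeq, GRCr8, chromosome 3, plus strand, and run 5' to 3'.
Hoxd11: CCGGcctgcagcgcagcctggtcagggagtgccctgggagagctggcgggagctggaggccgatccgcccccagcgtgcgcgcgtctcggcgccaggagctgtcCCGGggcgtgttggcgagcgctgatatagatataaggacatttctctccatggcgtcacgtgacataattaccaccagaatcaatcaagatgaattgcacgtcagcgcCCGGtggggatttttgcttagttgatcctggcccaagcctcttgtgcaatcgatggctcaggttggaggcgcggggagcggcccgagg
Hoxd9: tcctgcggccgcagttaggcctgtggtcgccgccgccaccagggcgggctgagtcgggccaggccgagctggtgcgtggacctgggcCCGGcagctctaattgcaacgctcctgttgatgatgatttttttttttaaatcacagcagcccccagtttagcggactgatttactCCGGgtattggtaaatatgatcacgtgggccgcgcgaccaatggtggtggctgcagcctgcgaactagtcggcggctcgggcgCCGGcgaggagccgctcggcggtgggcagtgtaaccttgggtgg
Hoxd1: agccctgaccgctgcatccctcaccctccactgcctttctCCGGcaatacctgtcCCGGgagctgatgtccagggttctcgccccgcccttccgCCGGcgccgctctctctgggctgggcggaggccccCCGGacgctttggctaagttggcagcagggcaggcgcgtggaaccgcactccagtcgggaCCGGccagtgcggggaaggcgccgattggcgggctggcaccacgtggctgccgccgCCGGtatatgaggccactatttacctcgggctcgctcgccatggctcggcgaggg
Hoxd3: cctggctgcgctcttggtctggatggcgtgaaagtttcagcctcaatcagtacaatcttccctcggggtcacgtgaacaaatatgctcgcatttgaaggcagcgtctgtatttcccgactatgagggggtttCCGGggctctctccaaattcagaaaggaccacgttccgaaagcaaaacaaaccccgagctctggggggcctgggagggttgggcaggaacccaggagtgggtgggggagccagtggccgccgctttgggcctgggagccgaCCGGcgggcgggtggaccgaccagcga
CCGG occurred in 51.4% of all 33469 promoters of the same length in the RefSeq table.

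In these Hoxd promoters, the mean level of a cytosine over the rats separated by whether its CpG lay inside CCGG. Whether the levels at CCGG are methylation of the rats' own DNA was not tested, because MspI cuts there and the cut ends were made blunt during library preparation. The methylation level is the percentage of reads at a cytosine that kept a C after bisulfite, averaged here over the 18 rats. All 26 measured CCGG cytosines of the 6 promoters stood between 93.2% and 99.7%, with a median of 97.9%. All 205 other cytosines stood between 0.365% and 7.16%, with a median of 2.49%. In the Hoxd11 promoter the 6 CCGG cytosines ranged from 97.1% to 98.02%, while the 44 others ranged from 1.68% to 5.32%. In Hoxd1 the 9 CCGG cytosines ranged from 96.9% to 99.7%, against 1.05% to 6.51% for the 43 others. In Hoxd9 the 4 CCGG cytosines ranged from 96.8% to 98.5%, against 0.933% to 7.16% for the 46 others. Hoxd3, whose CCGG sites held no measured cytosine, was low throughout, at 0.720% to 4.64% over 29 cytosines.

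**Figure D1:**
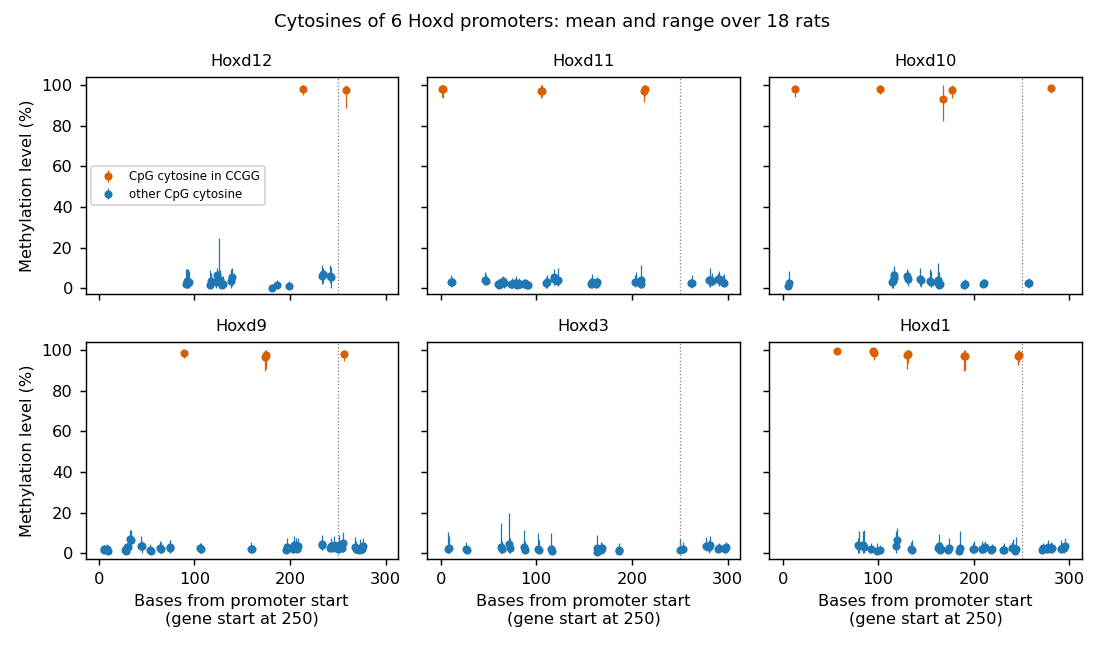
Methylation level (%) of each measured cytosine in 6 Hoxd promoters against its distance in bases from the promoter's start, with points for means and bars for the range over 18 rats (dotted line: gene start). The means of CCGG cytosines lie above 90% and those of all others below 10%, while the bars of single cytosines reach down to 82.5% and up to 25%.

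The same split was seen in the 4 other placed promoters of the spans that held measured CCGG cytosines, and Ttll6 held none. Of the 4, LOC102547667 and LOC102547478 overlap and share CCGG cytosines, so they are not separate instances. In the promoter of Ube2z, 6 CCGG cytosines stood between 97.2% and 98.6%, against 0.253% to 5.37% for 35 others. Outside the spans, 1447 promoters on the same 4 chromosomes were placed and low, meaning that the median of their other cytosines was under 10%. Their 3930 CCGG cytosines had a median of 97.8%, and 98.5% of them stood above 90%. Of the 3873 cytosines above 90% in those promoters, 99.97% lay in CCGG. The split was thus found outside the Hox spans as well. Per the labels' protocols, the DNA was cut at CCGG and the ends were made blunt before bisulfite treatment. The part of that step in the levels at CCGG was not tested, and these cytosines also enter the span means below.

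The split also held in each group of rats. The CCGG cytosines of the Hoxd promoters averaged 97.9% ± 0.393 in kindling seizure rats (SD, n = 4) and 97.3% ± 1.14 in kindling sham rats (SD, n = 4). They averaged 97.8% ± 0.541 in kainic acid seizure rats (SD, n = 3) and 97.9% ± 0.480 in kainic acid sham rats (SD, n = 7). The other cytosines averaged 2.80% ± 0.865 in kindling seizure rats and 2.84% ± 0.860 in kindling sham rats. They averaged 3.20% ± 0.138 in kainic acid seizure rats and 2.67% ± 0.517 in kainic acid sham rats. The groups overlapped for both kinds of cytosine, and no test was run on them.

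The low level of the Hoxd promoters was still higher on average than that of the low promoters outside the spans. Outside CCGG it averaged 2.82% ± 0.627 in the Hoxd promoters (SD, n = 18), against 1.504% ± 0.521 in the other low promoters. The difference was 1.32 points ± 0.225 (SD over rats) and was above 0 in 18 of 18 rats (permutation test by sign flips within rats, two-sided, p = 2e-05). Hoxd12 stood highest at 3.53%, above 97.8% of 1427 low promoters, and Hoxd3 lowest at 2.35%, above 94.0% of them. For these ranks a cytosine shared by several promoters was counted in 1 of them, which left 1427 of the 1447 low promoters. The test treats rats as replicates and the 6 promoters as fixed, so it compares these promoters only. CpG content was not matched. Among the other placed promoters of the spans, LOC102547478 in HoxC stood at 3.75% outside CCGG, above every Hoxd promoter. LOC102547667 stood at 1.88%, Ube2z at 1.62%, LOC120093746 at 1.35% and Ttll6 at 1.21%, below every Hoxd promoter.

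The 4 spans differed greatly in how many cytosines were measured. HoxD held 6.62 cytosines per kb, HoxB 5.31, HoxC 4.89 and HoxA 0.115, against 0.834 per kb over the whole table. These counts follow from where MspI cuts and from the authors' filters, and are the same for all rats, so no test applies. Counted as CpGs with the strands merged, HoxD had 1119, HoxB 1548, HoxC 1128 and HoxA 25. Among 27790 bins of 100 kb over the genome, chr3:61600001-61700000 in HoxD held 1435 cytosines and ranked 2. The bin chr10:84100001-84200000 in HoxB held 1296 and ranked 4, and chr7:144500001-144600000 in HoxC held 880 and ranked 45. The median bin held 26.

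The HoxA span stood apart from the others. All of its 46 cytosines lay between chr4:82006846 and chr4:82091106, and none of the remaining 308894 bp to the end of the span gave a value. Its levels therefore describe only that first stretch of the span, outside any placed Hox promoter, and comparisons with HoxA below compare that stretch.

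Most measured cytosines of the other 3 spans were low in methylation. The mean level over all cytosines was 13.7% ± 0.407 in HoxD, 19.9% ± 0.478 in HoxB and 20.7% ± 0.464 in HoxC (SD, n = 18 rats), against 42.6% over the whole table. In HoxA it was 85.5% ± 0.682. In HoxD, 85.4% of cytosines stood under 10% and 9.67% above 90%. In HoxB these shares were 75.4% and 13.6%, in HoxC 72.2% and 13.5%, and over all cytosines measured they were 48.1% and 28.6%. In HoxA 0 of 46 cytosines stood under 10% and 52.2% stood above 90%.

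All 6 pairs of spans differed in mean level over their measured cytosines. By a permutation test of the differences within rats (sign flips, two-sided), the adjusted p was 2e-05 for each, over the 6 pairs. Rats are the replicates and the measured cytosines are fixed in this test, so it compares these cytosines only. HoxC exceeded HoxD by 7.02 points ± 0.151 (SD, n = 18) and HoxB exceeded HoxD by 6.26 points ± 0.114, each in 18 of 18 rats. HoxB minus HoxC was -0.767 points ± 0.162, and HoxB was higher in 0 of 18 rats. That small difference turned round to 1.30 points when 50 kb was trimmed from each end of the spans and to 4.24 points when each tile of 1000 bp weighed the same. HoxA exceeded HoxB by 65.5 points, HoxC by 64.8 points and HoxD by 71.8 points in 18 of 18 rats.

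**Figure D2:**
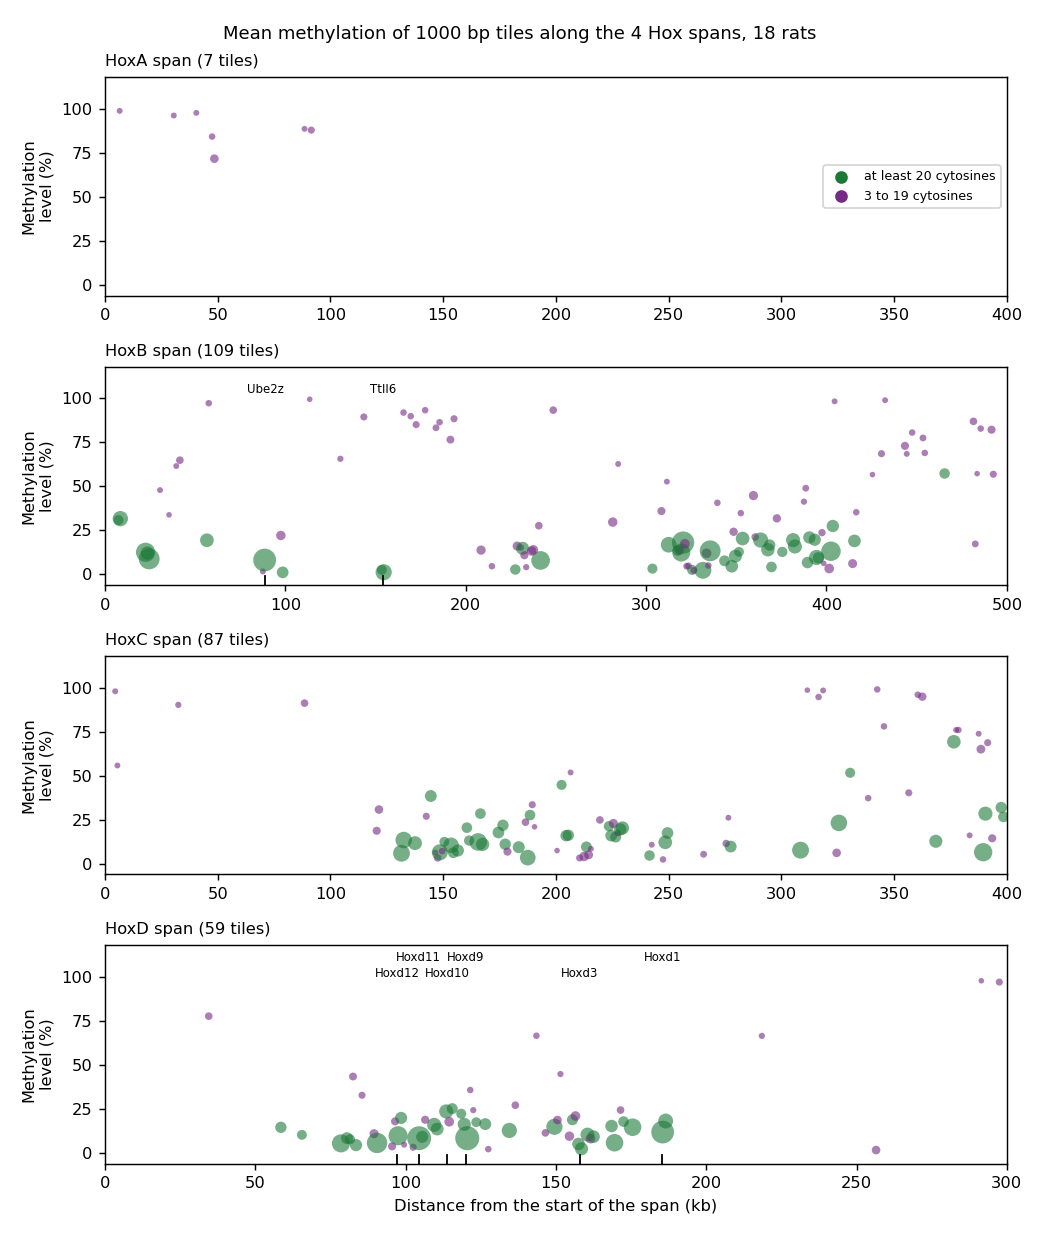
Mean methylation level (%) over 18 rats of each 1000 bp tile with at least 3 cytosines against its distance (kb) from the start of the span, with point size following the number of cytosines and ticks at the bottom marking placed promoters. Dense tiles lie low along HoxB, HoxC and HoxD, and the 7 tiles of HoxA lie high at one end of the span.

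Low methylation followed cytosine density along the spans. Of 262 tiles of 1000 bp with at least 3 cytosines, 117 were dense, holding at least 20, and 3 of these 117 stood above 50%, against 5209 of 24772 dense tiles in the whole table. Sparse tiles, with 3 to 9 cytosines, had a median of 57.2% in HoxB, 37.3% in HoxC and 35.9% in HoxD. The sparse median was 92.4% in HoxA and 88.2% over the whole table. The median dense tile stood at 12.8% in HoxB, 14.3% in HoxC and 12.9% in HoxD, and at 12.6% over the whole table. Dense and sparse medians thus lay closer together in HoxB, HoxC and HoxD than over the whole table. The part of CCGG cytosines in the levels of sparse and dense tiles was not tested. The 33 dense tiles of HoxD all lay in 129 kb, chr3:61558001-61687000, which held 1934 of its 1985 cytosines at a mean of 12.4%. The 51 cytosines of HoxD outside it averaged 59.9%. From the first measured cytosine of the Hoxd12 promoter to the last of the Hoxd1 promoter, 88.4 kb held 1433 cytosines at a mean of 13.4%, with 86.0% of them under 10%.

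The longest runs of low cytosines, with no more than 2000 bp between neighbours, differed in length. A run ended at the first cytosine not under 10%, so a measured CCGG cytosine as high as those in the placed promoters also ended it. Whether run lengths follow where CCGG was measured was not tested. In HoxD, chr3:61657308-61660633 held 78 consecutive cytosines under 10% over 3326 bp, at a mean of 3.13%. This run contains the Hoxd3 promoter, whose CCGG sites held no measured cytosine. In HoxC the longest was chr7:144554144-144556514, with 40 cytosines over 2371 bp at 4.36%. In HoxB it was chr10:84032551-84034003, with 14 cytosines over 1453 bp at 3.96%. These runs were chosen by length in bp, and by number of cytosines HoxB held a larger one, since all 28 measured cytosines of the Ttll6 promoter stood under 10%.

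High cytosines lay scattered inside low tiles. Of 840 cytosines above 90% in the spans, 541 (64.4%) lay in tiles whose median cytosine was under 10%, against 15.4% over the whole table. Most span cytosines lay in such low tiles, 5754 of 6640, against 1220429 of 2330883 over the whole table. As a share of the cytosines in low tiles, high ones made up 9.40% in the spans and 8.39% over the whole table. There were 220 in HoxB, 162 in HoxC and 159 in HoxD. Without them the mean level was 12.9% in HoxB, 13.7% in HoxC and 6.34% in HoxD. These cytosines could be assigned to CCGG only inside placed promoters.

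The remaining cytosines of the low tiles were higher in the spans than in low tiles elsewhere. They averaged 4.29% ± 0.508 in HoxC, 3.90% ± 0.431 in HoxD and 3.40% ± 0.549 in HoxB (SD, n = 18), against 2.28% ± 0.521 in the low tiles outside the spans. The differences were 2.01 points ± 0.130 for HoxC, 1.62 points ± 0.172 for HoxD and 1.12 points ± 0.147 for HoxB, in 18 of 18 rats each. In the permutation test by sign flips within rats the adjusted p was 2e-05 for each, over 3 comparisons. It too takes the measured cytosines as fixed. The spans' low tiles were also chosen on level, as were those outside, and sequence content was not matched.

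Tiles above 50% were mostly sparse: of 63 such tiles in the spans, 49 were sparse and 3 were dense. Of 112886 tiles above 50% over the whole table, 83207 were sparse. Outside placed promoters cytosines could not be assigned to CCGG, so the part of CCGG cytosines in the levels of these tiles was not tested. In HoxB the highest tile, chr10:83913001-83914000, averaged 99.4% over 3 cytosines, and chr10:84232001-84233000 averaged 98.9% over 4. The longest run above 50% in HoxB, chr10:83983012-83985336, held 13 cytosines over 2325 bp at 84.7%. In HoxC the highest tile was chr7:144742001-144743000, at 98.99% over 6 cytosines. In HoxD it was chr3:61791001-61792000, at 97.9% over 3 cytosines, and in HoxA chr4:82006001-82007000, at 98.8% over 4. The 3 dense tiles above 50% were chr7:144776001-144777000 at 69.3% over 42 cytosines, chr10:84265001-84266000 at 57.3% over 23 and chr7:144730001-144731000 at 51.7% over 21.

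Span tiles ranged less between rats than tiles elsewhere. The range of a tile over the 18 rats reached 5 points in 85 of 262 tiles (32.4%), against 55.9% of tiles in the whole table. Dense tiles made up 44.7% of the span tiles and 16.4% of all tiles, and their part in this was not tested. The widest was chr10:84225001-84226000 in HoxB, with 3 cytosines. It stood at 51.3%, 62.0%, 66.7% and 70.8% in kindling seizure rats and at 42.9%, 43.5%, 57.0% and 66.7% in kindling sham rats. It stood at 47.0%, 54.1% and 62.0% in kainic acid seizure rats, and kainic acid sham rats ran from 43.4% through a median of 51.4% to 84.6%. The groups overlapped in both models. In HoxD the widest was chr3:61534001-61535000, with 10 cytosines, where kindling sham replicate 3 was lowest at 61.1% and kainic acid sham replicate 1 highest at 83.7%. In HoxC chr7:144405001-144406000 ranged over 27.2 points and in HoxA chr4:82047001-82048000 over 16.7 points.

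The mean level of HoxB, HoxC and HoxD moved together with the level of low cytosines elsewhere in the same rat. Over the 18 rats, the mean of cytosines under 10% outside the spans ran from 1.15% to 2.87%. Its Pearson r with the mean level was 0.953 for HoxB, 0.961 for HoxC and 0.965 for HoxD, and Spearman's rho was 0.889, 0.922 and 0.922. Each permutation p was 1e-05, the smallest that 100000 permutations can give, and 1.33e-05 after adjustment over the 4 spans. Without the 2 rats farthest from the median, r was 0.931, 0.948 and 0.954. For HoxA r was -0.0474 (permutation p = 0.851, adjusted p = 0.851) and rho -0.104 (permutation p = 0.680, adjusted p = 0.680), and r was 0.0977 without those rats. Bisulfite conversion and depth per rat were not tested as sources of the shared level.

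**Figure D3:**
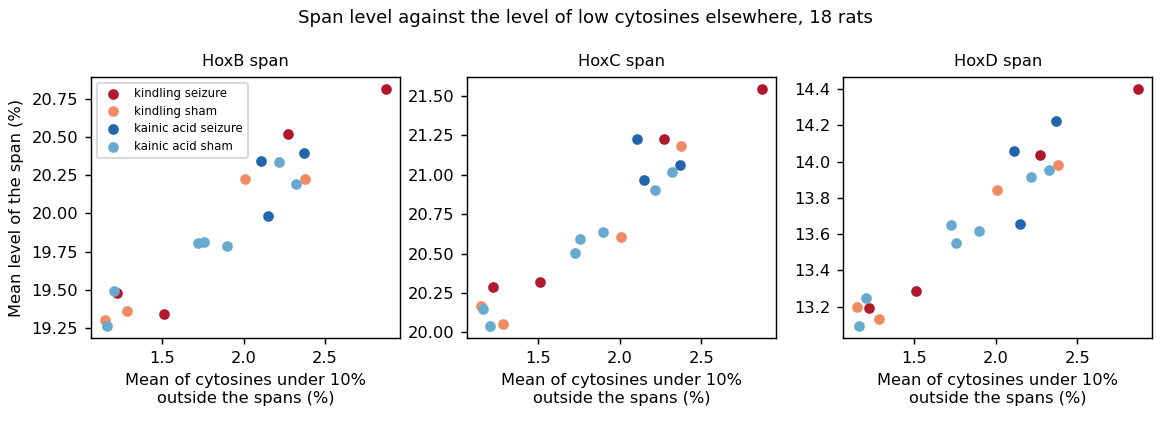
Mean level (%) of the HoxB, HoxC and HoxD spans against the mean level (%) of cytosines under 10% outside the spans, 1 point a rat coloured by group. The points rise together in each panel, and the 4 groups are intermixed.

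No seizure against sham difference in the mean level of a span passed adjustment. The test left little room to pass, as given below. In HoxC the mean was 21.1% ± 0.129 in kainic acid seizure rats (SD, n = 3) and 20.5% ± 0.359 in kainic acid sham rats (SD, n = 7), a difference of 0.538 points. By the exact permutation test over rats, two-sided, its p was 0.0417 and 0.533 after adjustment over 16 comparisons. Kainic acid seizure rats stood at 20.97%, 21.1% and 21.2%, while kainic acid sham rats ran from 20.04% through a median of 20.6% to 21.01%, so the groups overlapped. In HoxD the kainic acid seizure mean was 13.98% ± 0.290 and the kainic acid sham mean 13.6% ± 0.319, a difference of 0.404 points (exact permutation p = 0.0667, adjusted p = 0.533). In HoxB these means were 20.2% ± 0.226 and 19.8% ± 0.373, a difference of 0.428 points (exact permutation p = 0.100, adjusted p = 0.533). In HoxA the difference had the other sign, with 85.2% ± 0.502 in kainic acid seizure rats and 85.5% ± 0.835 in kainic acid sham rats, a difference of -0.252 points (exact permutation p = 0.633, adjusted p = 0.886). Low cytosines outside the spans moved with the levels of HoxB, HoxC and HoxD, as given above, and their part in the differences was not tested.

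In kindling the spread within groups was wider than the differences. In HoxC kindling seizure rats stood at 20.3%, 20.3%, 21.2% and 21.5%, and kindling sham rats at 20.1%, 20.2%, 20.6% and 21.2%, a difference of 0.343 points. In HoxB the difference was 0.259 points, in HoxD 0.190 and in HoxA 0.0743. Leaving out each rat moved the HoxC difference between 0.109 and 0.570 points and the HoxB difference between 0.000216 and 0.491. None of the kindling, sham or model comparisons had an adjusted p below 0.886 by exact permutation. The smallest p possible was 0.0286 for 4 against 4 rats and 0.00833 for 3 against 7. After adjustment over all comparisons, a single span at either value could not have passed if no other comparison was low. In kindling, even all spans at 0.0286 could not have passed without low p in other contrasts. An adjusted p above the threshold therefore does not show that groups were alike. Kainic acid sham minus kindling sham was -0.102 points in HoxA, 0.0311 in HoxB, 0.0465 in HoxC and 0.0371 in HoxD.

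**Figure D4:**
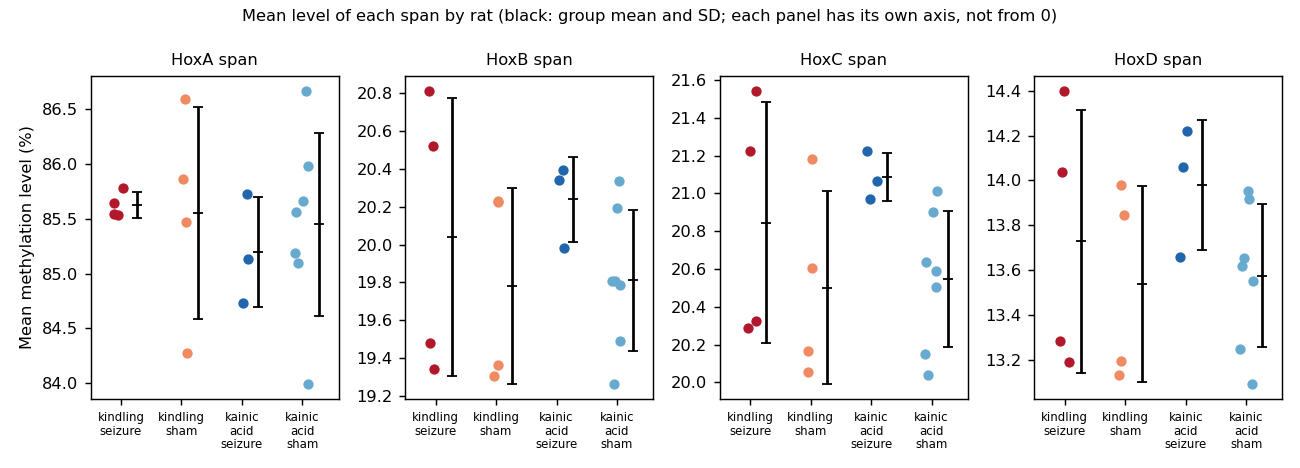
Mean methylation level (%) of each span by rat in the 4 groups, with the group mean and SD in black beside the points and each panel on its own axis, which does not start at 0. The seizure and sham points overlap in each of the 4 spans, and the kainic acid seizure means of HoxB, HoxC and HoxD lie 0.404 to 0.538 points above their shams, while that of HoxA lies below its shams.

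Tile by tile, no span tile was called. Of 85 span tiles that ranged over at least 5 points, limma called 0 at an adjusted p under 0.05 in each of the 4 contrasts, and it called 0% of 84600 tiles in the whole table. At an unadjusted p under 0.05, 3 of 85 span tiles passed for kindling seizure minus sham, against 5.71% of all tiles. For kainic acid seizure minus sham 2 of 85 passed, against 3.54% of all tiles. For kainic acid sham minus kindling sham 2 passed, against 6.35%, and for the difference between the models 2 passed, against 4.75%. These small counts depended on single rats. The kindling count was 8 of 85 without kindling sham replicate 1 and also without kindling sham replicate 4, where 6368 and 4543 of 84600 tiles passed over the whole table. The count was 7 without kindling seizure replicate 4, where 7915 of 84600 passed over the whole table. The kainic acid count was 0 without kainic acid seizure replicate 1 and 4 without kainic acid seizure replicate 3. In those fits, in that order, 3088 and 2437 of 84600 tiles passed over the whole table. The sham count ran from 0 without kindling sham replicate 4 to 5 without kindling sham replicate 1, where 5320 and 5741 passed over the whole table. The count between models ran from 2 to 5. It was 5 without kindling seizure replicate 3 and without kainic acid sham replicate 6, where 3931 and 3932 passed over the whole table. The whole table count between models ran from 3517 to 4921, and both ends fell in fits with 4 span tiles.

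Single cytosines gave the same picture. Of 1758 span cytosines that ranged over at least 10 points, limma called 0 in each contrast, against 0% of 800753 in the whole table for kindling and for the sham contrast. For kainic acid and for the difference between the models it called 5 cytosines in the whole table, 0.000624%, and none of them in the spans. Leaving out each rat moved the calls over the whole table to 0 to 52 for kindling and 0 to 87 between shams, each highest without kindling sham replicate 1. They moved to 4 to 54 for kainic acid and 3 to 37 between models, each highest without kainic acid seizure replicate 2, and 0 lay in the spans in each of these fits. At an unadjusted p under 0.05, 88 span cytosines passed for kindling, against 5.72% of all, and 61 passed for kainic acid, against 3.82%. For the sham contrast 97 passed, against 6.16%, and for the difference between the models 84 passed, against 4.63%.

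The tile with the smallest p was chr10:84230001-84231000 in HoxB, with 8 cytosines. It stood at 72.7%, 74.0%, 75.5% and 69.6% in kindling seizure rats and at 68.6%, 64.9%, 62.4% and 66.7% in kindling sham rats. These groups did not overlap, as in 2.44% of all tiles in this contrast. The difference was 7.30 points (SE 2.04, limma adjusted p = 0.768). Kainic acid seizure rats stood at 70.9%, 62.0% and 70.4%, and kainic acid sham rats ran from 65.7% through 68.5% to 69.9%, so they overlapped. The difference between the models was -7.50 points (limma adjusted p = 0.9999).

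Next came chr10:83983001-83984000 in HoxB, with 7 cytosines, which begins the longest run above 50%. It stood at 85.0%, 87.4%, 87.0% and 84.5% in kindling seizure rats and at 82.96%, 82.4%, 77.3% and 79.3% in kindling sham rats, without overlap. The difference was 5.49 points (SE 1.60, limma adjusted p = 0.772). Among tiles lower in kindling seizure rats, chr3:61646001-61647000 in HoxD stood at 10.4%, 13.4%, 7.36% and 5.32% in them and at 9.004%, 9.17%, 18.3% and 18.4% in kindling sham rats. These groups overlapped, and the difference was -4.61 points (SE 2.24, limma adjusted p = 0.875). For chr10:84193001-84194000 the difference was -2.95 points (SE 1.60, limma adjusted p = 0.890).

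For kainic acid, the smallest p was at chr10:83835001-83836000 in the HoxB span, with 3 cytosines. This tile lay at 35 kb of the span, before the placed Ube2z promoter at 88.8 kb. It stood at 46.9%, 33.3% and 32.8% in kainic acid seizure rats, and kainic acid sham rats ran from 22.4% through a median of 30.4% to 35.1%. Only kainic acid seizure replicate 1 lay above all the shams of its model. The difference was 8.47 points (SE 3.23, limma adjusted p = 0.9999). In HoxC chr7:144738001-144739000, with 6 cytosines, stood at 40.7%, 39.7% and 39.5% in kainic acid seizure rats, and kainic acid sham rats ran from 34.5% through 36.5% to 38.4%. These groups did not overlap, as in 1.49% of all tiles in this contrast, and the difference was 3.13 points (SE 1.31, limma adjusted p = 0.9999). In kindling the same tile ran the other way by value, at 35.6% in seizure rats and 37.8% in sham rats, and the difference between the models was 5.34 points (limma adjusted p = 0.999).

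Lower by value in kainic acid seizure rats was chr7:144745001-144746000 in HoxC, which stood at 74.4%, 78.7% and 75.9% in them. Kainic acid sham rats ran from 74.7% through a median of 80.2% to 86.4%, and the groups overlapped. The difference was -4.41 points (SE 2.54, limma adjusted p = 0.9999). For chr10:83991001-83992000 it was -2.03 points (SE 1.34, limma adjusted p = 0.9999).

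**Figure D5:**
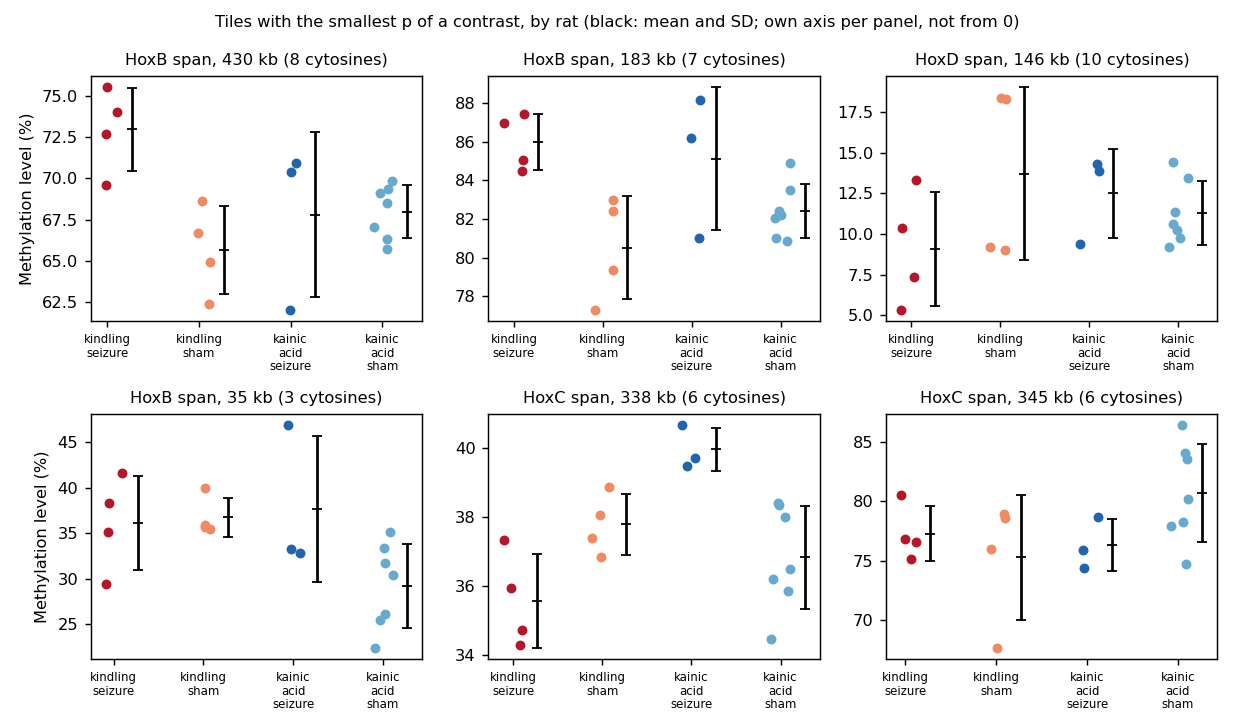
Methylation level (%) by rat in 6 tiles of 1000 bp named for their small p in a seizure contrast, with the group mean and SD in black and each panel on its own axis, not from 0. Kindling seizure rats lie above kindling sham rats in the first 2 panels, 73.0% against 65.7% and 86.0% against 80.5%, and kainic acid seizure rats lie above their shams in the tile at 338 kb of HoxC.

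Between the sham groups, chr7:144745001-144746000 differed by 5.43 points (SE 2.31, limma adjusted p = 0.738) and chr7:144665001-144666000 by 1.95 points (SE 0.935, limma adjusted p = 0.790). In the other direction chr10:83835001-83836000 differed by -7.57 points (SE 2.93, limma adjusted p = 0.698) and chr3:61622001-61623000 by -2.56 points (SE 1.27, limma adjusted p = 0.801). The 95% interval of a tested tile's difference reached a median of 4.03 points to either side for kindling, 3.93 for kainic acid, 3.57 between shams and 5.63 between models. These intervals are not adjusted for the number of tiles tested. A difference larger than these medians could still go uncalled, as at chr10:83835001-83836000 between shams.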

How the data were processed

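The authors deposited 1 table of methylation fractions (beta values, 0 to 1) for 18 rats, with each strand of a CpG on its own row and 0 missing values. Per the submitters' processing notes, FastQC, Trim Galore, Bismark, Bowtie2, methylKit and build rn6 were used, with neither versions nor roles given. No source used here gives the coverage minimum or other filters. Without read counts the depth is unknown, and no counting interval was given.

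Fractions were multiplied by 100 and averaged over cytosines or tiles of 1000 bp per rat. Span means were compared by permutation over rats (100000 sign flips within rats, or exact between groups). Tiles with at least 3 cytosines and a range of 5 points, and cytosines with a range of 10 points, were fitted with limma 3.58.1 (R 4.3.3) on the whole table, all 4 groups in 1 fit, with Benjamini-Hochberg adjustment over all of it, and tested on simulated data. Per contrast, where no tile was called, the tiles of lowest p were named, 2 higher and 2 lower, and per span the highest, the widest ranging and the longest runs. Promoter placement, the CCGG comparison and the low tile comparison were added after the data were seen. The members and lists were chosen with earlier results of these data known. Each rat is a separate animal per the labels. Alternatives covered tile size, filters, scale, trimming, a replicate block and leaving out each rat. Python 3.11.15 with NumPy 2.4.6 and SciPy 1.17.1 was used for the rest.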

Additional observations from a re-analysis of the deposited data

Results flagged for a closer look

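Of 141 sets of group values checked, 6 had 1 rat far from the others of its group. Chance flags about 1 in 20 groups. At chr10:83835001 kindling sham replicate 4 stood at 39.9%. At chr7:144665001 kindling seizure replicate 4 stood at 7.31%. At chr7:144676001 kindling seizure replicate 1 stood at 40.0%. Kainic acid sham replicate 5 stood low at chr3:61622001, at 19.3%, and at chr7:144627001, at 5.68%. At the Ttll6 promoter kainic acid sham replicate 1 stood high, at 4.10%.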

How the results depend on the processing

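The order of density and the call of 0 span tiles and 0 span cytosines held in the alternatives run, and the cause of each change below was not tested. Counting CpGs gave 0.0625 per kb in HoxA, 3.10 in HoxB, 2.82 in HoxC and 3.73 in HoxD, and trimming 50 kb from each end gave 0.04, 5.57, 5.32 and 9.73. In the same order of spans, mean levels were 88.2%, 18.3%, 17.01% and 12.9% with trimming, 89.3%, 34.4%, 30.1% and 20.6% with equal tiles and 92.4%, 3.55%, 4.44% and 3.303% as medians. With strands averaged they were 23.7% in HoxB, 24.2% in HoxC and 17.6% in HoxD, and without high cytosines in low tiles, chosen after seeing the data, 12.9%, 13.7% and 6.34%. HoxB minus HoxC turned to 1.30 points with trimming and 4.24 with equal tiles. No dense tile lay in HoxA, so its pairs could not be run on those.

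No group difference passed in any alternative, but small ones changed sign. The replicate block could not pass, since the smallest p it allows is 0.125 with 4 pairs and 0.25 with 3. By exact permutation over rats, kindling differences had little room to pass either, as given above. In HoxA, kindling became -0.170 points with strands averaged and -0.193 relative to the rat's mean, kainic acid 0.0416 with trimming, and the sham contrast 0.866 with trimming and 0.128 with equal tiles. In HoxB, the sham contrast became -0.0219 with trimming, -0.0232 with equal tiles and -0.00136 relative to the rat's mean, kindling -0.00854 relative to that mean, and the difference between models -0.0263 with equal tiles. In HoxD, the sham contrast became -0.0250 with equal tiles and kindling -0.0776 relative to the rat's mean.

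Leaving out each rat, the HoxA differences ran from -0.352 to 0.423 points for kindling, -0.529 to 0.247 between shams and -0.675 to 0.100 between models. The sham contrast ran from -0.128 to 0.180 in HoxB, -0.103 to 0.274 in HoxC and -0.0985 to 0.185 in HoxD. The difference between models ran from -0.0634 to 0.427 in HoxB and -0.0322 to 0.428 in HoxC, and kindling in HoxD from -0.0345 to 0.369. Without a change of sign, kainic acid ran from -0.517 to -0.0180 in HoxA and 0.283 to 0.565 in HoxD, and the difference between models from 0.0350 to 0.438 in HoxD. Whole table tile calls ran from 0 to 9 for kindling, 0 to 13 between shams and 0 to 7 between models, each highest without kindling sham replicate 1, and from 0 to 5 for kainic acid, highest without kainic acid seizure replicate 1. None lay in the spans. Without the range filter 1 tile was called for kainic acid, and within the sham groups alone 2 were called.

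Deviations of same-numbered rats correlated at 0.115, 0.0970, -0.111 and 0.155 in kindling and at -0.0297, -0.0418 and -0.0156 in kainic acid. Rats with different numbers were not correlated for comparison, so whether replicate numbers pair the rats was not tested. With the replicate block, the HoxA kainic acid difference was 0.286 points, and 1 tile of the whole table was called for kainic acid and 2 between models, none in the spans. Levels rest on fractions of unknown depth, and HoxA on 46 cytosines at one end of its span.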
